A study of Arabidopsis thaliana with 102 samples.

Results

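Seedlings of *bzip60-2*, which carry a T-DNA insertion in the gene of the transcription factor bZIP60, were compared with Col-0 seedlings in the absence of ER stress. The comparison takes every library of both genotypes that received DMSO only, 9 of *bzip60-2* and 9 of Col-0. These are 18 of the 54 RNA-seq libraries and 18 of the 102 samples of the series, and the time of collection is a term of the fit. The series follows the recovery of *Arabidopsis thaliana* from tunicamycin (Tm), which blocks N-glycosylation of proteins in the ER, in Col-0 and in 2 insertion mutants, *bzip60-2* and *bzip28-2*, together with ChIP-seq of GFP-tagged bZIP28 and bZIP60. Both genotypes compared here were 5-day-old whole seedlings that spent 6 h in liquid medium with DMSO, the solvent of Tm. They were then moved to solid medium and collected after 0, 12 or 24 h, with 3 replicates of 12 seedlings per genotype and time-point. *bzip60-2* (SAIL_283_B03) is 1 homozygous insertion line in the Col-0 ecotype and is labelled a knockout. A difference that goes with this line cannot be assigned to *bZIP60* from these libraries alone. *bzip28-2* (SALK_132285), with 9 DMSO libraries made in the same way, serves as another insertion line, and 18 Tm libraries of *bzip60-2* and Col-0 (0.5 µg/mL for the same 6 h) allow the same genotype comparison in other seedlings.

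bZIP60 is an arm of the unfolded protein response (UPR). When misfolded proteins gather in the ER, the RNase IRE1 splices the *bZIP60* mRNA and the protein made from it enters the nucleus. Genes of chaperones, folding enzymes and ER-associated degradation are then transcribed, a task shared with bZIP28, which is released from the ER membrane by proteolysis. Without ER stress most *bZIP60* mRNA remains unspliced, and single mutants of either factor grow much like the wild type.

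The measure is FPKM, a fragment count scaled for transcript length and for the size of the library. Differences are given as log2 of *bzip60-2* over Col-0 on the log2(FPKM + 1) scale, which understates the change of genes with low FPKM. Each is given ± the standard error (SE) of limma's fit, from 9 libraries per genotype, with a p-value adjusted over 21161 genes (FPKM over 1 in at least 1 of the 18 libraries). FPKM sums of the 18 libraries ran from 844730 to 918448, and the sequencing depth read from the steps of 1351 low genes ran from 0.828 to 1.27 relative to the median, with medians of 1.01 in *bzip60-2* and 0.961 in Col-0. Replicates of a group correlated with a median r of 0.977 across genes, which are not independent replicates. The sources call the replicates biological, and the p-values measure the spread between these seedling pools.

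The *bZIP60* transcript itself did not pass the test under DMSO. *bZIP60* (AT1G42990, chromosome 1, bases 16135723 to 16137463, minus strand) was at 29.6, 36.9 and 39.4 FPKM at 0 h, 24.0, 22.2 and 24.9 at 12 h and 21.4, 26.8 and 25.3 at 24 h in Col-0. In *bzip60-2* the values were 33.4, 31.2 and 37.8 FPKM at 0 h, 29.9, 35.0 and 27.6 at 12 h and 18.4, 22.8 and 17.9 at 24 h. The replicates overlapped at 0 h and 24 h, and those of *bzip60-2* lay above Col-0 without overlap at 12 h. The log2 differences at 0, 12 and 24 h were -0.04, 0.36 and -0.31, with adjusted p of 0.906, 0.0926 and 0.306 and of 0.140 for genotype by time. Over all times the difference was 0.00 ± 0.10 (adjusted p = 0.986) with a 95% interval from -0.20 to 0.21. Under Tm, where *bZIP60* is itself induced, it was at 145 to 231 (median 203) FPKM in Col-0 and 69.6 to 148 (median 116) FPKM in *bzip60-2*, without overlap at any time-point, a difference of -0.87 ± 0.08 (adjusted p = 9.69e-06). FPKM over the whole gene does not show on which side of the insertion the reads lay or whether the transcript was spliced, and the DMSO values thus do not check the knockout label. A different locus marked every library of the line. AT2G38630, on chromosome 2, was at or below 0.0918 FPKM in all 18 *bzip60-2* libraries and at or above 4.48 FPKM in all 18 Col-0 libraries.

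Across the time-points, 706 genes (3.34%) were higher and 288 (1.36%) lower in *bzip60-2* at an adjusted p under 0.01, called changed genes here. Of these, 120 genes (0.567% of all tested) were higher and 22 (0.104%) lower by a log2 difference over 1, called DEGs, so that 994 genes (4.7%) changed and 142 (0.671%) were DEGs. The median of all genes was 0.08, and after scaling the libraries to each other by the median ratio it was -0.01. The scaled split of changed genes was 475 higher and 355 lower. In 49 of the 120 higher DEGs and 16 of the 22 lower DEGs the 3 *bzip60-2* replicates did not overlap the 3 Col-0 replicates at any of the 3 time-points, against 1.31% and 0.633% of all genes. The genes named below for the largest differences were taken from these, so their lack of overlap is no finding. The estimates of the higher DEGs varied with time, with median log2 differences of 1.42 at 0 h, 1.72 at 12 h and 0.84 at 24 h, while the lower DEGs stood at -1.58, -1.28 and -1.45. The higher calls depended most on the 12 h libraries and also on those of 0 h. Without the 12 h libraries, all 142 DEGs kept their sign, but 3 of the 120 higher and 9 of the 22 lower DEGs had an adjusted p under 0.01. Without the 0 h libraries these were 33 and 12, and without those of 24 h 115 and 20. Each of these fits also has fewer libraries.

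Calls at single time-points depended on single libraries. DEGs numbered 131 higher (0.619%) and 52 lower (0.246%) at 0 h, 199 (0.94%) and 25 (0.118%) at 12 h, and 11 (0.052%) and 19 (0.0898%) at 24 h. With 1 library left out the higher counts ran from 48 to 175 at 0 h, where *bzip60-2* 0 h replicate 3 gave the lowest. They ran from 34 (Col-0 12 h replicate 1) to 273 (*bzip60-2* 12 h replicate 2) at 12 h, and from 3 (Col-0 24 h replicate 1) to 23 (*bzip60-2* 24 h replicate 1) at 24 h. The lower counts ran from 15 (*bzip60-2* 0 h replicate 3) to 67 (*bzip60-2* 24 h replicate 2) at 0 h. They ran from 7 (Col-0 12 h replicate 1) to 48 (*bzip60-2* 12 h replicate 2) at 12 h, and from 7 (*bzip60-2* 24 h replicate 3) to 26 (*bzip60-2* 12 h replicate 2) at 24 h. Over all times, the 22 lower DEGs became 35 without *bzip60-2* 24 h replicate 1.

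**Figure D1:**
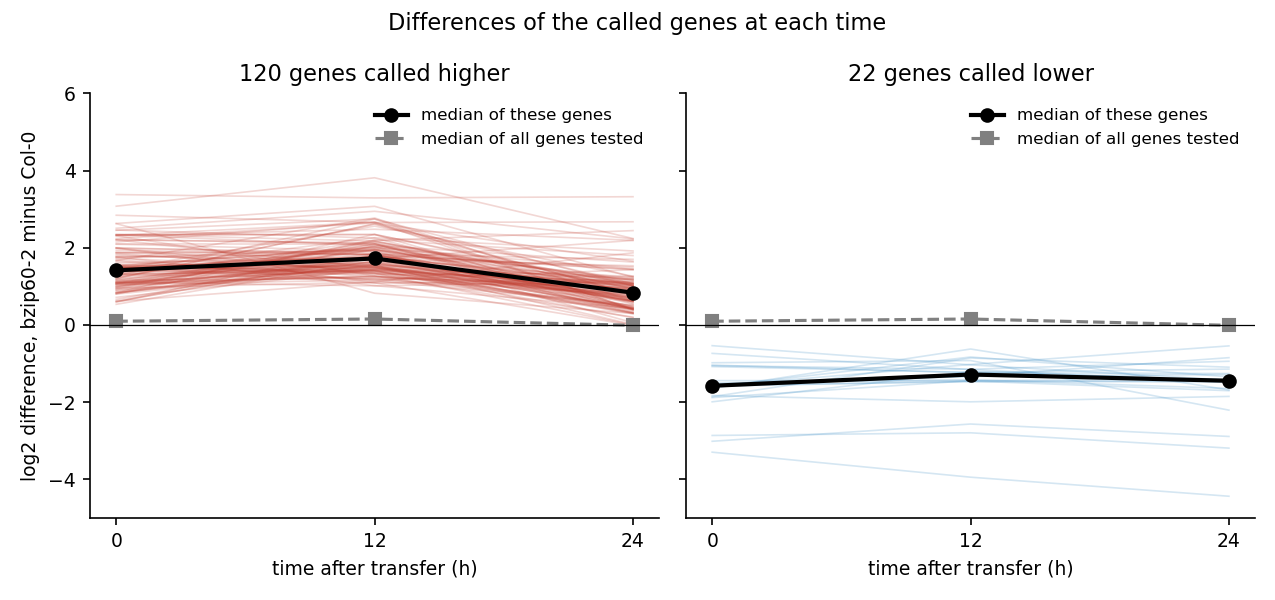
Log2 difference of *bzip60-2* minus Col-0 under DMSO (vertical axis, log2 of FPKM + 1) at 0, 12 and 24 h (horizontal axis), 1 thin line for each of the 120 higher DEGs (left) and 22 lower DEGs (right), with their median (black circles) and the median of all 21161 genes tested (grey squares, dashed). The higher genes fall from a median of 1.72 at 12 h to 0.84 at 24 h, whereas the lower genes stay near their level, and since the genes were chosen by the mean of these estimates their side of 0 is no finding.

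A small set of genes differed by about the same amount at every time-point. *G6PD3*, a plastid glucose-6-phosphate dehydrogenase of the oxidative pentose phosphate pathway, was at 48.8, 44.5 and 39.9 FPKM at 0 h, 17.0, 21.3 and 19.8 at 12 h and 14.2, 13.9 and 14.6 at 24 h in Col-0. In *bzip60-2* it was at 14.5, 12.7 and 17.1 FPKM at 0 h, 7.22, 7.95 and 6.03 at 12 h and 4.93, 5.92 and 4.97 at 24 h. Values were lower at later times in both genotypes, and the difference was -1.38 ± 0.07 (adjusted p = 1.60e-09). No *bzip60-2* replicate reached a Col-0 replicate of its time-point, which was a condition for naming this gene. *UBC12*, an E2 ubiquitin-conjugating enzyme, went the other way, with 0.145 to 4.83 (median 2.45) FPKM in Col-0 and 5.56 to 17.0 (median 11.3) FPKM in *bzip60-2*, a difference of 1.93 ± 0.15 (adjusted p = 7.49e-07). AT3G29644, a long non-coding RNA annotated as antisense to AT3G29642, was at 5.52 to 12.9 (median 7.84) FPKM in Col-0 and 1.42 to 3.30 (median 2.21) FPKM in *bzip60-2* (-1.46 ± 0.13, adjusted p = 2.85e-06). The libraries are stranded, but how strand entered the FPKM is not given in the sources used here, so reads of this gene and its partner may not be told apart. All 3 genes also differed from *bzip28-2* in the same direction (log2 -1.25, 2.05 and -1.53) and differed between *bzip60-2* and Col-0 under Tm (-1.72, 2.29 and -1.17), each at an adjusted p under 0.01 by limma.

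Some of the largest differences were also seen in *bzip28-2*. AT2G34590, annotated as a transketolase family protein, was at 4.74 to 6.68 FPKM in Col-0 and at 59.3 to 78.3 FPKM in *bzip60-2*. This was 11.6-fold by the means and 3.33 ± 0.06 (adjusted p = 7.13e-17) on the log2 scale. In *bzip28-2* it was at 66.0 to 76.8 FPKM, which differed from *bzip60-2* by -0.05 ± 0.05 (adjusted p = 0.727). AT3G44006, a small uncharacterised protein, was at 11.6 to 28.5 FPKM in Col-0 and listed at 0 in 8 of 9 *bzip60-2* libraries and in all 9 *bzip28-2* libraries, the exception being 3.18 FPKM in *bzip60-2* at 0 h, replicate 3. AT3G01345, also uncharacterised, was at 1.96 to 5.74 (median 3.57) FPKM in Col-0, 0.205 to 0.764 (median 0.519) FPKM in *bzip60-2* and 0.112 to 0.506 (median 0.289) FPKM in *bzip28-2*. For these genes both insertion lines stood on the same side of the Col-0 libraries, which the comparisons share.

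Neighbouring genes in a short stretch of chromosome 2 were low together in *bzip60-2*. AT2G38630, a WD40 repeat protein (chromosome 2, bases 16153806 to 16156608, minus strand), was at 5.27, 8.76 and 5.89 FPKM at 0 h, 4.48, 7.46 and 6.22 at 12 h and 6.33, 9.10 and 9.53 at 24 h in Col-0. In *bzip60-2* it was listed at 0 in 7 of 9 libraries and reached at most 0.0918 FPKM. AT2G38640, a LURP-one-like protein of unknown function, was at 3.80 to 8.02 (median 6.56) FPKM in Col-0 and listed at 0 in 8 of 9 *bzip60-2* libraries, with 0.0796 FPKM in the other. Reads of both genes were thus almost absent from the line, and their fitted differences, -2.95 and -2.82, depend on the pseudocount of 1. *CDKB1;2* (AT2G38620), a B-type cyclin-dependent kinase of the G2 to M transition, was lower without being lost, at 5.26 to 9.58 (median 6.71) FPKM against 0.809 to 1.62 (median 1.25) FPKM (-1.89 ± 0.09, adjusted p = 5.64e-10). Its annotation overlaps AT2G38630 on the other strand, so their reads may not be told apart either. *GAUT7* (AT2G38650), a protein of the galacturonosyltransferase complex that makes pectin, was at 23.2 to 35.4 (median 28.9) FPKM in Col-0 and 12.5 to 26.8 (median 15.7) FPKM in *bzip60-2* (-0.63 ± 0.09, adjusted p = 3.84e-04).

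The genes on either side did not pass the test. AT2G38610, an RNA-binding KH domain protein upstream of the stretch, differed by 0.06 ± 0.08 (adjusted p = 0.646) and AT2G38660, next to *GAUT7*, by -0.09 ± 0.08 (adjusted p = 0.437), both named after their values were seen, as was *GAUT7*. The 4 low genes were also lower than in *bzip28-2* (log2 -2.08 for *CDKB1;2*, -3.09 for AT2G38630, -2.88 for AT2G38640 and -0.71 for *GAUT7*) and were lower than Col-0 under Tm (-1.61, -2.88, -2.53 and -0.79), all at an adjusted p under 0.01. Of the 24 other genes tested within 50 kb, 2 changed, *WRKY33* and *LTP2*, and both were higher (4.7% of all genes changed). Over the genome, DEGs numbered 34, 27, 21, 26 and 34 on chromosomes 1 to 5. The 1 Mb window with most of them was bases 16000001 to 17000000 of chromosome 2, which holds this stretch and has 8 DEGs among 233 genes tested (3.43%), followed by bases 24000001 to 25000000 of chromosome 1 with 7 among 174 (4.02%). Within 2 Mb of *bZIP60* on either side, 1 of 241 genes tested was a DEG (0.415%).

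**Figure D2:**
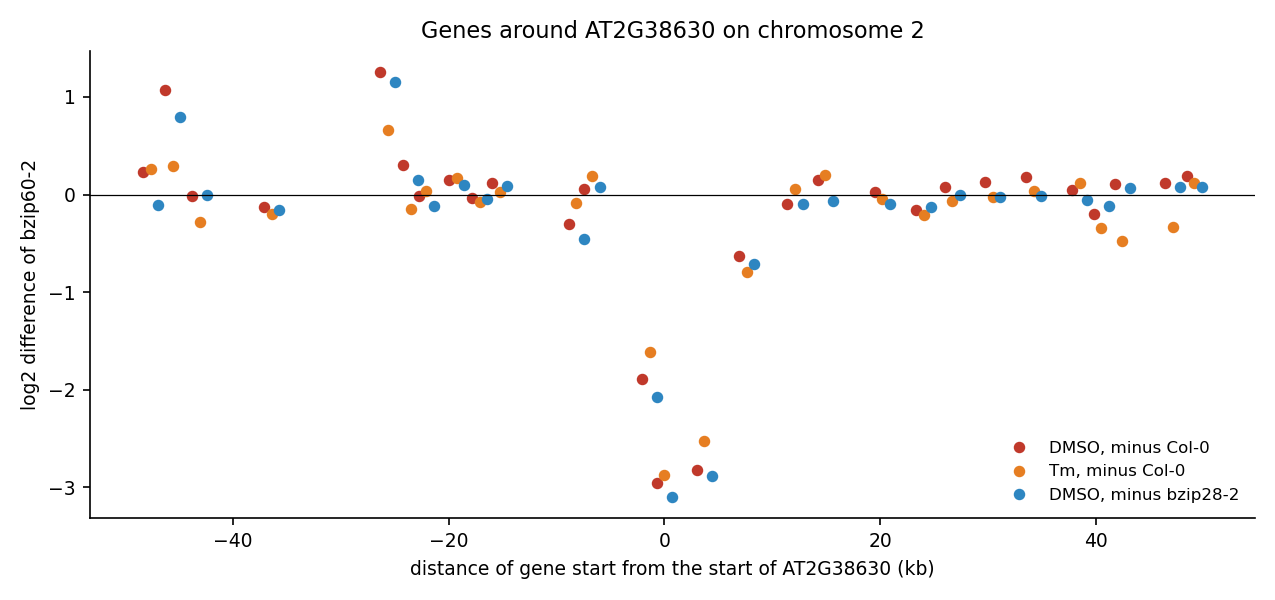
Log2 difference of *bzip60-2* (vertical axis) for each gene tested within 50 kb of AT2G38630, placed by the distance of its start from the start of AT2G38630 in kb (horizontal axis), with points of a gene set slightly apart: against Col-0 under DMSO (red), against Col-0 under Tm (orange) and against *bzip28-2* under DMSO (blue). In all 3 comparisons *CDKB1;2*, AT2G38630, AT2G38640 and *GAUT7* lie below 0, the lowest near -3, and the adjacent genes lie close to 0.

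Several of the higher genes with the largest differences are known from defence. *AIG1*, a GTPase-like gene first found as induced during resistance to *Pseudomonas syringae*, had the largest difference of the higher DEGs after AT2G34590. It was at 21.1, 1.64 and 32.9 FPKM at 0 h, 2.79, 1.16 and 6.63 at 12 h and 0.238, 2.05 and 0.846 at 24 h in Col-0. The *bzip60-2* libraries had 68.6, 121 and 139 FPKM at 0 h, 100.1, 24.8 and 65.7 at 12 h and 5.79, 19.1 and 4.39 at 24 h. Both genotypes had lower values at later times, and the difference was 3.04 ± 0.46 (adjusted p = 6.31e-04). The genotypes did not overlap at any time-point, which was a condition for naming this gene. *CML41*, a calmodulin-like protein that acts at plasmodesmata in defence, was at 1.28 to 9.85 (median 2.28) FPKM in Col-0 and 5.47 to 53.2 (median 21.2) FPKM in *bzip60-2* (2.33 ± 0.27, adjusted p = 8.73e-05). AT4G22470, a lipid transfer protein family member, reached 37.7 to 424 FPKM against 10.5 to 106 FPKM (2.56 ± 0.34, adjusted p = 3.40e-04). The receptor-like kinase *CRK13* was at 6.53 to 49.0 (median 20.4) FPKM against 1.88 to 11.5 (median 4.31) FPKM (1.85 ± 0.27, adjusted p = 5.73e-04). Values of both last genes overlapped between the genotypes over all times, but, by the rule of choice, not within a time-point.

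Other genes with large differences follow. The blue copper protein gene *BCB* was at 6.00 to 30.0 (median 15.1) FPKM in Col-0 and 28.6 to 76.7 (median 55.9) FPKM in *bzip60-2* (1.86 ± 0.21, adjusted p = 4.89e-05). *PDF1.4*, a plant defensin, was at 0.455 to 17.1 (median 2.03) and 2.36 to 75.8 (median 11.5) FPKM (1.96 ± 0.25, adjusted p = 2.16e-04) and, unlike *AIG1* and *CML41*, had higher values at later times in both genotypes. AT2G20142 and AT1G57630, which encode TIR domain proteins of the kind found in immune receptors, differed by 1.79 and 1.68. The kinase gene AT5G11410 differed by 1.72 and AT5G52760, a copper transport family protein, by 1.87, and adjusted p of the 4 ran from 3.26e-05 to 7.26e-04. *FAMT*, a farnesoic acid methyltransferase, and *TAT3*, a jasmonate-responsive tyrosine aminotransferase, were at or below 4.63 FPKM in every Col-0 library. *FAMT* differed by 2.72 ± 0.44 (adjusted p = 8.79e-04) and spanned 2.00 to 43.7 FPKM in *bzip60-2*, with its highest value in 24 h replicate 2. *TAT3* differed by 2.18 ± 0.41 (adjusted p = 0.00259).

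A tandem group on chromosome 4 of hybrid proline-rich proteins, which act in systemic immunity and were chosen here after their values were seen, was higher as well. *AZI1* was at 309 to 1423 (median 619) FPKM in Col-0 and 798 to 2843 (median 2227) FPKM in *bzip60-2* (1.44 ± 0.26, adjusted p = 0.00207). Its neighbour *EARLI1* was at 708 to 1696 (median 867) and 1646 to 7448 (median 3064) FPKM (1.64 ± 0.23, adjusted p = 4.28e-04). The genes are similar in sequence, and how reads that fit more than 1 of them were shared out is uncertain, so their separate values are too. The calcium-binding protein AT3G47480, also chosen after its values were seen, was at 1.27 to 22.1 (median 4.38) FPKM in Col-0 and 4.19 to 97.8 (median 32.0) FPKM in *bzip60-2* (2.31 ± 0.35, adjusted p = 6.31e-04).

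**Figure D3:**
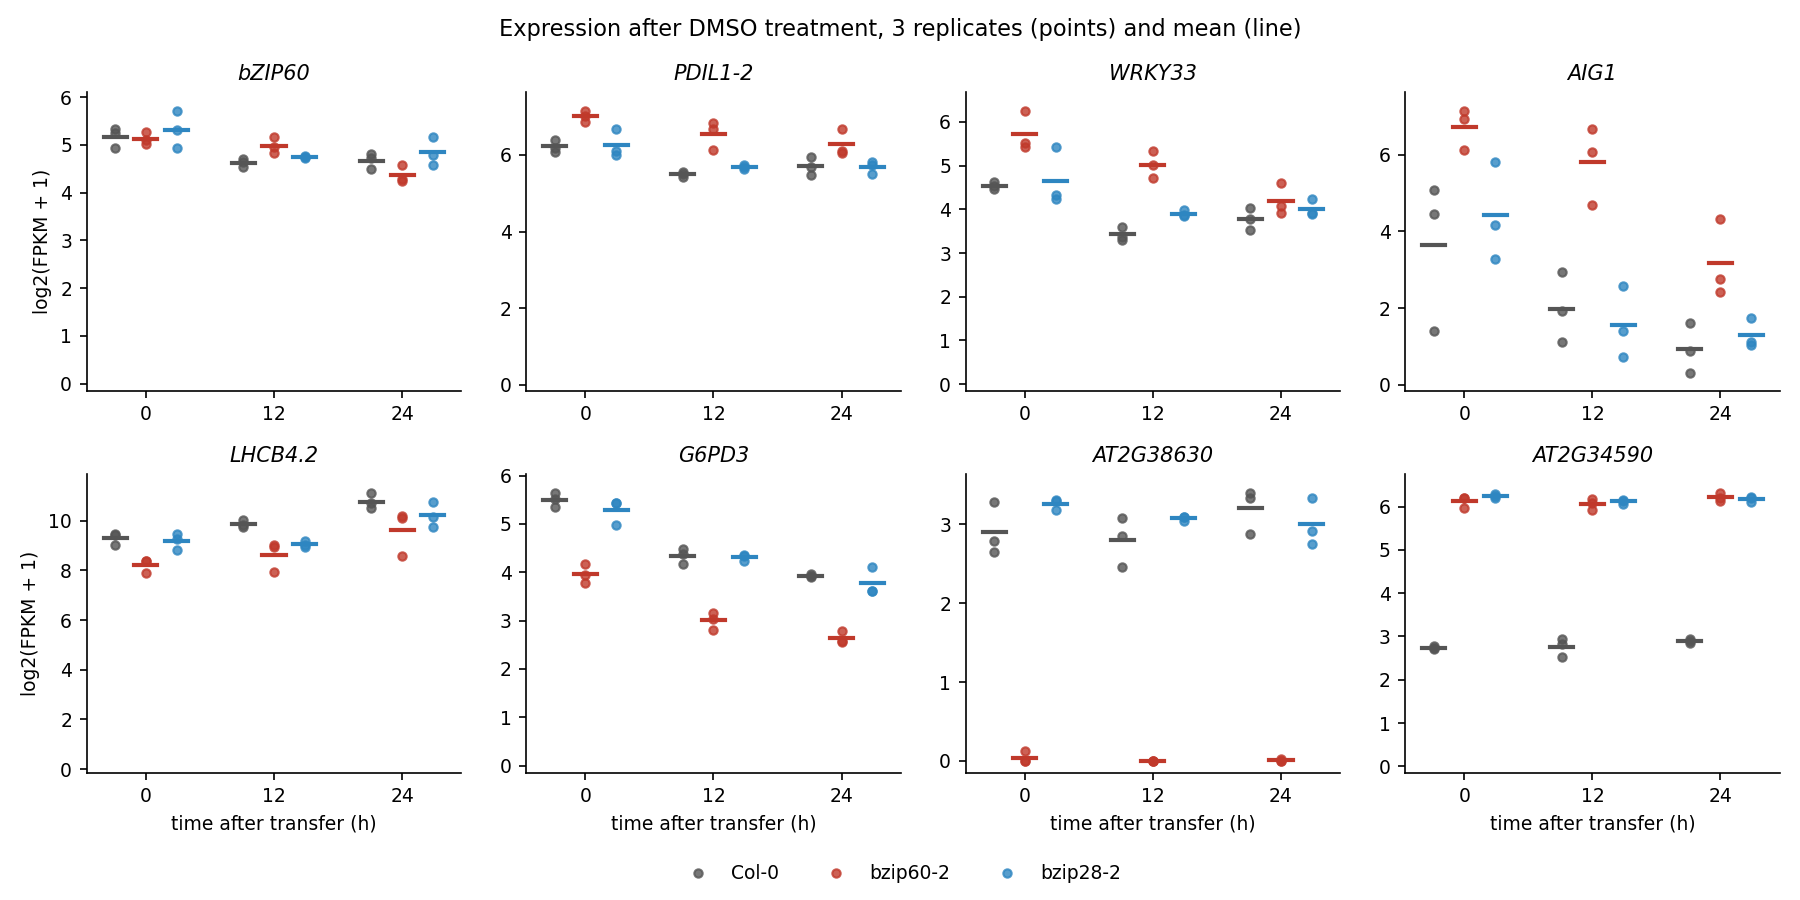
Expression as log2(FPKM + 1) (vertical axis) against time after transfer in h (horizontal axis) for 8 genes in Col-0 (grey), *bzip60-2* (red) and *bzip28-2* (blue) under DMSO, 1 point per replicate and a line at the mean of the 3. *bZIP60* overlaps between *bzip60-2* and Col-0 at 0 h and 24 h and is higher in *bzip60-2* at 12 h, *PDIL1-2*, *WRKY33* and *AIG1* are higher in *bzip60-2* and most so at 0 h and 12 h, *LHCB4.2* and *G6PD3* are lower, AT2G38630 is near 0 in *bzip60-2* alone, and AT2G34590 is high in both mutants.

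The list of touch, wounding and early stress genes held the highest share of calls. Of its 17 members tested, 12 were higher and 0 lower (70.6% against 3.34% of all genes), 5 of them DEGs, with a median log2 difference of 0.71 against 0.08 for all genes. The count was also 12 after scaling. In fits added after seeing the data it was 9 to 13 when 1 library was left out, 3 without the 0 h libraries and 0 without the 12 h libraries. *MYB15*, a regulator of lignin and cold responses, was at 11.7, 5.58 and 12.0 FPKM at 0 h, 0.874, 2.82 and 1.09 at 12 h and 0.619, 2.03 and 1.05 at 24 h in Col-0. It was at 41.1, 39.8 and 80.4 FPKM at 0 h, 14.0, 7.76 and 13.8 at 12 h and 1.90, 8.02 and 2.22 at 24 h in *bzip60-2*, where only the lowest value at 24 h fell below the highest of Col-0 (1.90 ± 0.28, adjusted p = 5.28e-04). *ZAT10*, a zinc finger repressor of stress genes, did not overlap at any time-point, with 11.0, 20.8 and 16.9 FPKM at 0 h, 6.93, 6.96 and 5.41 at 12 h and 3.89, 8.56 and 10.4 at 24 h in Col-0. In *bzip60-2* it was at 29.2, 26.2 and 32.0 FPKM at 0 h, 19.5, 16.5 and 27.7 at 12 h and 12.7, 25.7 and 16.2 at 24 h (1.19 ± 0.18, adjusted p = 6.20e-04). *TCH4*, the xyloglucan endotransglucosylase known for induction by touch, was highest right after transfer, at 77.3, 152 and 122 FPKM in Col-0 and 246, 237 and 327 FPKM in *bzip60-2*, and overlapped between the genotypes at 24 h (1.17 ± 0.18, adjusted p = 7.26e-04 over all times). *SZF2*, a CCCH zinc finger protein of the salt response, differed by less and without overlap, with 15.5 to 21.0 (median 17.1) FPKM in Col-0 and 21.2 to 31.9 (median 27.2) FPKM in *bzip60-2* (0.60 ± 0.07, adjusted p = 8.73e-05).

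*WRKY33*, a central regulator of camalexin synthesis and of defence against necrotrophic fungi, is a member of this list with peaks of GFP-bZIP60. It was at 22.0, 23.7 and 20.9 FPKM at 0 h, 9.30, 11.2 and 8.91 at 12 h and 10.4, 15.4 and 12.8 at 24 h in Col-0. In *bzip60-2* it was at 44.5, 42.2 and 74.9 FPKM at 0 h, 39.0, 25.3 and 31.4 at 12 h and 14.0, 23.4 and 15.8 at 24 h. It was above every Col-0 replicate at 0 h and 12 h and overlapped at 24 h (1.07 ± 0.17, adjusted p = 7.60e-04). *WRKY40* and *WRKY46*, both WRKY factors induced in basal defence, differed by 1.38 ± 0.25 (adjusted p = 0.00187) and 1.80 ± 0.34 (adjusted p = 0.00263). These genes, and the genes whose promoters follow, were chosen after their values were seen. WRKY factors bind the W-box. In all, 66 of the 120 promoters of higher DEGs (55.0%) held TTGACC or TTGACT on either strand in the 250 bases before the gene start, against 28.3% of all 20975 promoters with a sequence and 6 of 22 (27.3%) of lower DEGs. More than 1 W-box stood in 18.3% of the higher DEGs and 6.00% of all. Among all changed genes the shares were 45.9% of 704 higher and 24.5% of 286 lower. The higher DEGs with and without a W-box had median log2 differences of 1.24 and 1.35, and a match is a description of the sequence, not a site of binding.

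The following promoters are printed because they show the element in higher genes, with the W-boxes of either strand in capitals, from RefSeq's sequence of TAIR10.1, whose nuclear chromosomes are those of TAIR10. The window of *WRKY33* (chr2:16107985-16108234, plus strand) lies inside the GFP-bZIP60 peaks at 0 h (bases 16107858 to 16108989) and 24 h (16107843 to 16108918) and holds 2 W-boxes. AT5G64120 (chr5:25661008-25661257, minus strand), a cell wall peroxidase of lignification, has 3 and its window lies inside a GFP-bZIP60 peak at 24 h (25658297 to 25661342). AT5G44585 (chr5:17984277-17984526, plus strand), an uncharacterised protein, has 4, the most of any higher DEG, and AT2G43620 (chr2:18095094-18095343, minus strand), a chitinase family protein, has 3, of which the last pair adjoin.
WRKY33: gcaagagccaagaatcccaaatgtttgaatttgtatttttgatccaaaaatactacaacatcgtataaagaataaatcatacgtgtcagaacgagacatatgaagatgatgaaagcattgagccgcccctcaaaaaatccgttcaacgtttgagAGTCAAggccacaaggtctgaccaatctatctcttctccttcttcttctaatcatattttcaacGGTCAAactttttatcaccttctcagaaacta
AT5G64120: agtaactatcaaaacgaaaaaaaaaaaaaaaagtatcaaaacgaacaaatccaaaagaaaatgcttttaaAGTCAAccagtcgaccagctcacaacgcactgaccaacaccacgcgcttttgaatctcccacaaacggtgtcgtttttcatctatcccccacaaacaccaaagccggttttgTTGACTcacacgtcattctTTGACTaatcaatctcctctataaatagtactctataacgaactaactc
AT5G44585: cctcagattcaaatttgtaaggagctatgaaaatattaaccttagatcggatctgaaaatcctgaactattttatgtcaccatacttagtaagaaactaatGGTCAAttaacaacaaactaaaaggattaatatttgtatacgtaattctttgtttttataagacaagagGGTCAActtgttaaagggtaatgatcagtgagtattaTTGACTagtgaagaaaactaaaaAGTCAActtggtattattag
AT2G43620: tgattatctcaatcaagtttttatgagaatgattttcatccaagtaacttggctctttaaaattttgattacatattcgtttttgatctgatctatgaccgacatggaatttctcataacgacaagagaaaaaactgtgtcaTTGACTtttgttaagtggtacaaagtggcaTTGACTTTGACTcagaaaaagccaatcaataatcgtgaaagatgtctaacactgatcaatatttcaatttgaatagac

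The genes of these promoters showed the genotype difference at several levels of expression. AT5G64120 was at 305, 344 and 438 FPKM at 0 h, 299, 399 and 358 at 12 h and 350.2, 580.1 and 441 at 24 h in Col-0. In *bzip60-2* it was at 758, 570.4 and 699 FPKM at 0 h, 933, 753 and 1143 at 12 h and 873, 1309 and 796 at 24 h, without overlap at any time-point (1.14 ± 0.13, adjusted p = 8.73e-05). AT5G44585 was at 7.30 to 47.6 (median 22.2) FPKM in Col-0 and 22.4 to 90.6 (median 44.0) FPKM in *bzip60-2* (1.22 ± 0.20, adjusted p = 9.22e-04), and AT2G43620 at 77.9 to 271 (median 155) and 213 to 645 (median 479.6) FPKM (1.27 ± 0.21, adjusted p = 0.00115). Elements known for bZIP28 and bZIP60 were in fewer promoters. ERSE-I (CCAATNNNNNNNNNNCACG) was in 1 of 120 promoters of higher DEGs against 0.839% of all, on either strand and in the same window. The UPRE core TGACGTG was in 5 of 120 (4.17%) against 3.23%, and UPRE-III (TCATCG) in 9 of 120 (7.50%) against 6.55%. AT5G64120 is 1 of the 5 with the UPRE core. Among the 286 promoters of lower changed genes ERSE-I was in 5 (1.75%), the UPRE core in 22 (7.69%) and UPRE-III in 24 (8.39%). Among the 704 of higher changed genes these elements were in 9 (1.28%), 29 (4.12%) and 56 (7.95%). The G-box CACGTG, whose letters can overlap those of the UPRE core, was in 3 of 120 (2.50%) against 7.14%, and in 38 of 286 (13.3%) promoters of the lower changed genes. The I-box GATAAG was scanned as well and was in 19 of 120 (15.8%) against 12.3%. The evening element AAAATATCT, also scanned, was in 6 of 120 (5%) against 2.50%. Among the 286 promoters of lower changed genes these were in 46 (16.1%) and 5 (1.75%).

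**Figure D4:**
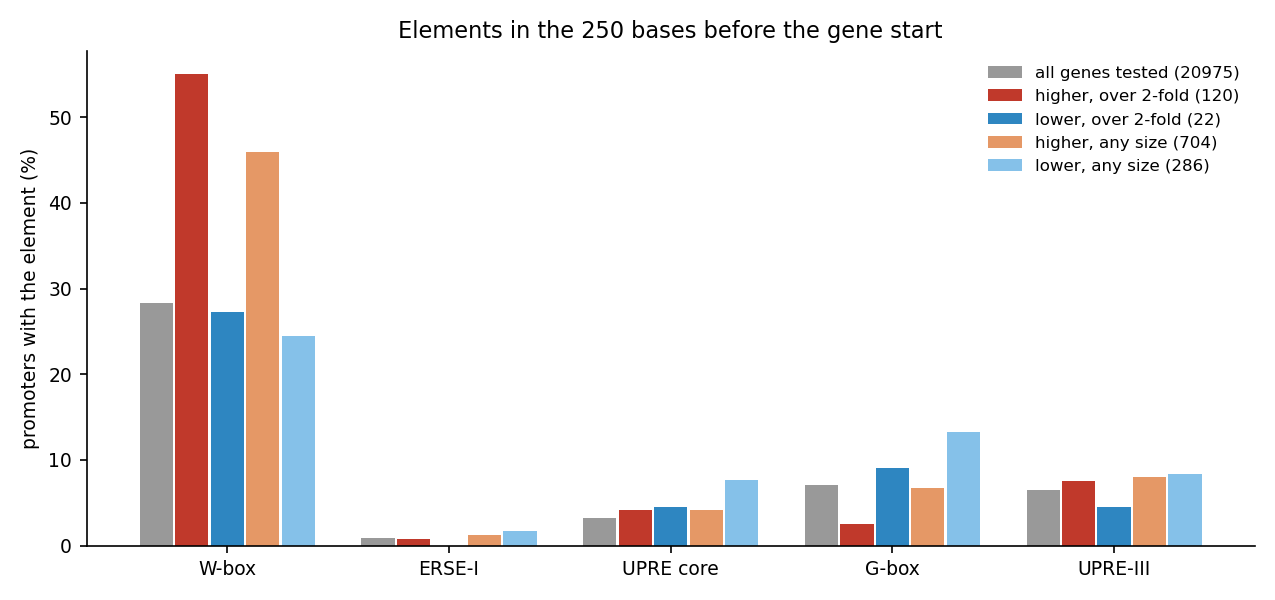
Share of promoters (vertical axis, %) that hold the W-box, ERSE-I, the UPRE core, the G-box or UPRE-III on either strand in the 250 bases before the gene start. Bars are for all 20975 genes with a sequence (grey), the 120 higher (red) and 22 lower (blue) DEGs and the 704 higher (orange) and 286 lower (light blue) changed genes. The W-box stands at 55.0% in higher DEGs and 28.3% in all genes, and ERSE-I stays under 2% in every set.

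Genes of salicylic acid signalling gave a few calls, all higher. Of 21 tested, 4 were higher and 0 lower (19.0% against 3.34% of all genes), and the median log2 difference was 0.84. Estimates were above 0 for 20 of the 21, where 14908 of all 21161 genes were above 0. In fits added after seeing the data none of the 21 was called without the 0 h or without the 12 h libraries, and 7 were without those of 24 h. *CBP60G* and *SARD1*, paired transcription factors that switch on salicylic acid synthesis, differed by 1.41 ± 0.24 (adjusted p = 0.00127) and 1.34 ± 0.23 (adjusted p = 0.00140). *SARD1* was at 0.725, 1.34 and 1.64 FPKM in Col-0 and 12.1, 4.62 and 8.03 FPKM in *bzip60-2* at 12 h, and at 0.571, 0.949 and 0.503 and 1.08, 3.40 and 1.18 FPKM at 24 h. *SAG101*, a partner of EDS1, differed by 0.92 ± 0.18 (adjusted p = 0.00293). *PBS3*, which makes the direct precursor of salicylic acid, was at 0.509, 0.695 and 1.52 FPKM in Col-0 and 13.7, 3.47 and 11.9 FPKM in *bzip60-2* at 12 h and differed by 1.70 ± 0.39 (adjusted p = 0.00895) over all times. Its call was lost after scaling (adjusted p 0.0118) and in 12 of the 18 fits that left out 1 library, with the highest adjusted p, 0.0217, without Col-0 12 h replicate 1. *ICS1*, the isochorismate synthase of the pathway, and the marker *PR1*, both named after their values were seen, had estimates of 0.84 and 1.39 with adjusted p of 0.0396 and 0.20. Among the 21 jasmonate genes *JAZ1*, a repressor of jasmonate signalling, was the 1 called (4.76% against 3.34% of all genes), at 11.8 to 38.8 (median 16.1) FPKM in Col-0 and 19.8 to 133 (median 53.4) FPKM in *bzip60-2* (1.19 ± 0.20, adjusted p = 0.00118). Of 6 ethylene genes *ACS6* and AT1G62380, an ACC synthase and an ACC oxidase, differed by 0.61 and 0.53, and both calls were lost after scaling (adjusted p 0.0111 and 0.0199). Leaving out 1 library ended the call of *ACS6* in 12 of 18 fits, at most with an adjusted p of 0.0177 without Col-0 12 h replicate 1, and that of AT1G62380 in 15, at most 0.0235 without Col-0 12 h replicate 3.

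Nuclear genes of photosynthesis were lower as far as they were called. Of 23 tested, 12 were lower and 0 higher (52.2% against 1.36% of all genes), with a median log2 difference of -0.65. All 23 estimates were below 0, where 6253 of all 21161 genes were below 0. The count of lower calls was 8 after scaling, 4 without the filter, and 0 without either the 0 h or the 12 h libraries. With 1 library left out it ran from 2 to 15, with 2 without Col-0 12 h replicate 1, 4 without Col-0 12 h replicate 3 or 24 h replicate 1, and 5 without Col-0 12 h replicate 2. It was 6 without *bzip60-2* 0 h replicate 3, and 7 without Col-0 0 h replicates 2 or 3, Col-0 24 h replicate 3, *bzip60-2* 0 h replicate 2 or *bzip60-2* 12 h replicates 1 or 3. *LHCB4.2*, an antenna protein of photosystem II, was at 523, 693 and 695 FPKM at 0 h, 1029.9, 867 and 899 at 12 h and 2191, 1448 and 1669 at 24 h in Col-0. It was at 334, 333 and 239 FPKM at 0 h, 244, 519 and 490.3 at 12 h and 1163, 381 and 1105 at 24 h in *bzip60-2*, below every Col-0 replicate of the same time-point (-1.15 ± 0.20, adjusted p = 0.00129). *LHCA4* of the photosystem I antenna was at 1734 to 5529 (median 2238) FPKM against 625 to 3211 (median 1466) FPKM (-0.80 ± 0.16, adjusted p = 0.00298). *PSBO2* of the oxygen-evolving complex differed by -0.68 ± 0.14 (adjusted p = 0.00407), with an adjusted p of 0.0107 without Col-0 12 h replicate 1. Outside the list, the antenna gene *LHCB2.3* was at 188 to 1569 (median 777) and 67.8 to 627 (median 179.6) FPKM (-1.58 ± 0.28, adjusted p = 0.00150) and *FRO6*, a ferric chelate reductase of green tissue, at 10.8 to 34.3 (median 15.6) and 2.17 to 16.7 (median 4.21) FPKM (-1.54 ± 0.23, adjusted p = 6.31e-04). *NCED4*, a carotenoid-cleaving dioxygenase of the plastid, differed by -1.18 ± 0.17 (adjusted p = 4.28e-04) and the thionin *THI2.2* by -1.24 ± 0.23 (adjusted p = 0.00202).

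The leaf markers are this same list, and their summed level moved with the genotype: 55154, 55009 and 63159 FPKM in Col-0 against 43248, 39681 and 37531 FPKM in *bzip60-2* at 0 h. At 12 h the sums were 90994, 74859 and 79308 FPKM against 41061, 50936 and 58822 FPKM, and at 24 h 110890, 81797 and 96206 FPKM against 94243, 46331 and 88511 FPKM. The groups did not overlap at 0 h and 12 h and did at 24 h, where *bzip60-2* replicate 2 stood apart, also with the lowest sum of the 20 root markers (93.3 FPKM against 156 and 245 FPKM in the other two). Without that library 105 genes were higher and 19 lower DEGs. In whole seedlings, fewer cells of a type and less RNA per cell cannot be told apart. No root marker was called (0 of 20, median -0.29), and their sums ran from 237 to 502 FPKM in Col-0 and from 93.3 to 524 FPKM in *bzip60-2*. No gene of the 8 on the seed storage list reached 1 FPKM in any of the 18 libraries. The summed touch genes ran from 836 to 1216 FPKM in *bzip60-2* at 0 h against 454 to 605 FPKM in Col-0. At 12 h they ran from 390 to 434 FPKM against 175 to 188 FPKM. At 24 h they overlapped, with 236 to 408 FPKM in *bzip60-2* and 189 to 286 FPKM in Col-0. What part the makeup of the seedlings has in the differences was not tested.

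**Figure D5:**
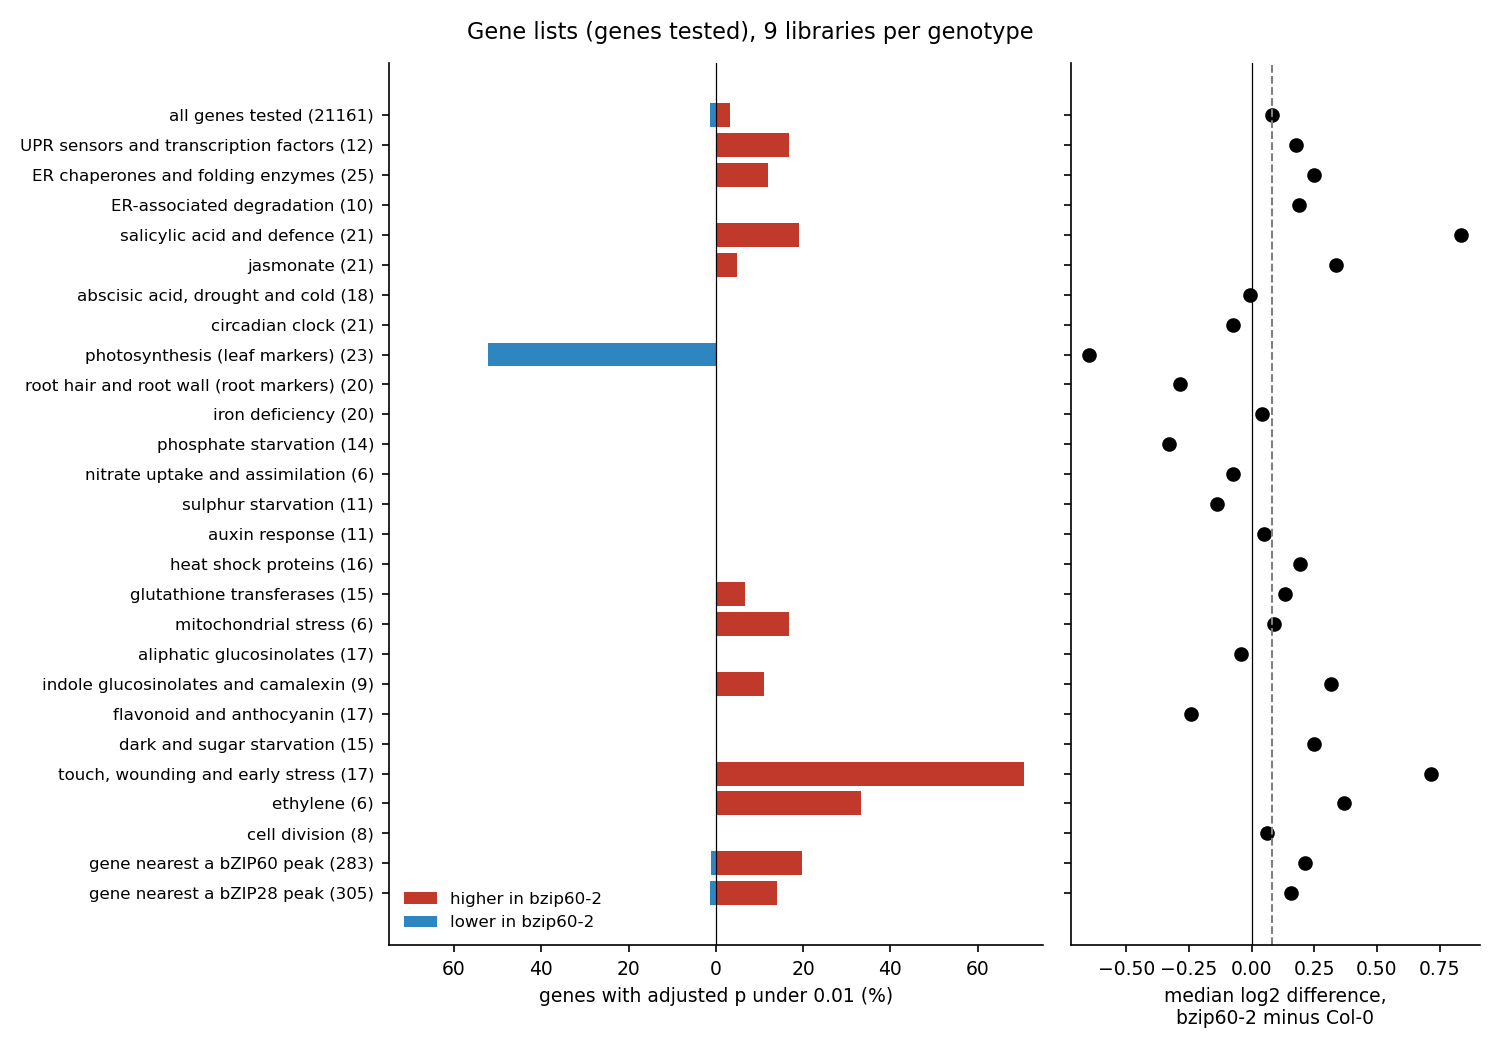
Left, share of tested members of each gene list (number in brackets) that were higher (red, to the right) or lower (blue, to the left) in *bzip60-2* at an adjusted p under 0.01, in %. Right, median log2 difference of the list, with the median of all genes tested (0.08) as a dashed line. Touch and early stress genes (70.6% higher) and photosynthesis genes (52.2% lower) lie furthest from the 3.34% and 1.36% of all genes.

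Few of the ER genes that bZIP60 serves under stress were called, and none was lower. Of 25 chaperones and folding enzymes 3 were higher and 0 lower (12.0% and 0% against 3.34% and 1.36% of all genes), with a median log2 difference of 0.25 against 0.08. *PDIL1-2*, a protein disulfide isomerase, was at 72.0, 65.8 and 83.4 FPKM at 0 h, 41.8, 44.6 and 45.5 at 12 h and 43.6, 60.5 and 50.3 at 24 h in Col-0. It was at 128, 115 and 139.9 FPKM at 0 h, 113, 69.0 and 101 at 12 h and 65.6, 101 and 67.7 at 24 h in *bzip60-2*, higher without overlap at every time-point (0.81 ± 0.11, adjusted p = 4.08e-04). *ERdj3A*, an ER DnaJ co-chaperone, was at 1.94 to 6.30 (median 2.50) and 3.70 to 9.80 (median 6.01) FPKM (0.80 ± 0.11, adjusted p = 4.25e-04), while *ERO1*, the oxidase that recharges disulfide isomerases, was at 2.38 to 3.50 (median 3.24) and 3.06 to 6.51 (median 5.37) FPKM (0.56 ± 0.09, adjusted p = 0.00102). *BIP3*, the BiP chaperone that is switched on by ER stress, was at 0.324 to 2.15 FPKM in Col-0 and 0.230 to 2.76 FPKM in *bzip60-2* (-0.19 ± 0.09, adjusted p = 0.176), against 300.1 to 711 FPKM in Col-0 after Tm. *ERdj3B* differed by 0.20 ± 0.08 (adjusted p = 0.102) and the cell death suppressor *BI1* by 0.41 ± 0.11 (adjusted p = 0.0220). Without the 12 h libraries none of the 25 was called, and without the 24 h libraries 10 were, all higher. The 3 became 8, 7, 6 and 5 without *bzip60-2* 24 h replicate 1, Col-0 24 h replicate 2, *bzip60-2* 24 h replicate 3 and *bzip60-2* 12 h replicate 2.

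Among 12 UPR sensors and transcription factors *NAC062*, a membrane-tethered factor, differed by 0.52 ± 0.10 (adjusted p = 0.00280) and the splicing RNase *IRE1A* by 0.27 ± 0.06 (adjusted p = 0.00725). That call was lost with scaling (adjusted p 0.0159) and in 14 of the 18 fits without 1 library, the weakest without Col-0 12 h replicate 1 (0.0179). *bZIP28* was at 7.61 to 12.3 (median 10.7) FPKM in Col-0 and 7.78 to 13.6 (median 11.6) FPKM in *bzip60-2* (0.18 ± 0.06, adjusted p = 0.0666), and *NAC103* differed by 0.23 ± 0.13 (adjusted p = 0.244). None of 10 genes of ER-associated degradation was called, with estimates from 0.06 to 0.25. All 3 of the called folding genes, *PDIL1-2*, *ERdj3A* and *ERO1*, are nearest genes of GFP-bZIP60 peaks and also of GFP-bZIP28 peaks, as are 17 of the 25 folding genes. The GFP-bZIP60 peaks were called in Tm-treated seedlings that express the tagged factor in *bzip60-2*, and peaks overlapping a DMSO peak had been removed except, by the study's methods, those much stronger after Tm. Of 283 tested genes nearest to such a peak, 56 were higher and 3 lower in *bzip60-2* (19.8% and 1.06%, against 3.34% and 1.36% of all genes), with a median log2 difference of 0.21 against 0.08. After scaling, 35 of the 283 were higher and 3 lower, against 475 and 355 of all 21161 genes. For GFP-bZIP28 peaks the numbers were 43 higher and 4 lower of 305 (14.1% and 1.31% against the same shares), median 0.16, so that the lower shares were near or below that of all genes. After scaling, 30 of these 305 were higher and 4 lower. Of the 283 genes nearest to a GFP-bZIP60 peak 6 were DEGs, all higher, where 0.567% of all genes were higher DEGs. They were the stress genes *WRKY33*, *ZAT10* and *GSTU11*, the peroxidase AT5G64120, the hydrolase AT5G24210 and the uncharacterised AT2G18690. Of the 305 genes nearest to a GFP-bZIP28 peak 7 were DEGs, all higher, and AT5G64120 was among them as well.

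Many of the DEGs also separated *bzip60-2* from *bzip28-2*. In the fit of 27 DMSO libraries *bzip60-2* had 413 genes (1.94%) higher and 90 (0.422%) lower than *bzip28-2*, of which 78 (0.366%) and 6 (0.0282%) passed a log2 of 1. *bzip28-2* differed from Col-0 in 2 genes higher (0.00938%) and 17 lower (0.0798%), of which 1 (0.00469%) and 9 (0.0422%) passed a log2 of 1. Of the 120 higher DEGs, 86 were also higher than in *bzip28-2*, and of the 22 lower DEGs, 10 were also lower, in a comparison that shares the *bzip60-2* libraries. *AIG1*, at 0.659 to 55.0 FPKM in *bzip28-2*, differed from it by 2.80 ± 0.47 (adjusted p = 7.84e-04) and *PDIL1-2* by 0.73 ± 0.11 (adjusted p = 2.05e-04). For the photosynthesis list the median against *bzip28-2* was -0.38 and none of its 23 genes passed the test. The estimates of *bzip28-2* against Col-0 had a median of -0.26, also with none called. Under Tm the list had a median of -0.50 and 0 of 23 called. *LHCB4.2* differed by -0.50 ± 0.19 (adjusted p = 0.480) between *bzip28-2* and Col-0 and by -0.65 ± 0.19 (adjusted p = 0.0403) between the mutants.

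The Tm libraries share no sample with the DMSO libraries, and there 807 genes (3.8%) were higher and 516 (2.43%) lower in *bzip60-2* than in Col-0. Of the 120 higher DEGs, 43 were higher under Tm and 0 lower, 112 had the same sign, where 62.3% of the 20741 genes tested under both treatments were above 0 under Tm, and the median log2 difference was 0.64. Of the 22 lower DEGs, 18 were lower under Tm and 0 higher, with a median of -1.41. *AIG1* was at 3.55 to 45.2 (median 32.5) FPKM in Col-0 and 54.3 to 171 (median 90.6) FPKM in *bzip60-2* under Tm (2.03 ± 0.29, adjusted p = 2.41e-04). *FAMT* was at 1.02 to 28.7 (median 6.67) and 0.555 to 18.3 (median 7.14) FPKM (-0.28 ± 0.36, adjusted p = 0.647). Under Tm, *WRKY33* differed by 0.29 ± 0.14 (adjusted p = 0.164) and *PDIL1-2* by 0.14 ± 0.11 (adjusted p = 0.434). The difference of the differences, tested over 36 libraries, passed in 14 genes (0.0646%) and 9 genes (0.0415%) in either direction and in none of the 142 DEGs, and for *FAMT* its adjusted p was 0.0122. Root hair genes, of which none passed the test under DMSO, had 12 of 20 lower under Tm with a median of -0.74. *COW1*, a phosphatidylinositol transfer protein of root hair tips, differed by -0.28 ± 0.13 (adjusted p = 0.185) under DMSO and -0.70 ± 0.14 (adjusted p = 0.00341) under Tm. *LRX1*, a root hair wall protein, differed by -0.31 ± 0.17 (adjusted p = 0.250) and -0.82 ± 0.13 (adjusted p = 8.28e-04).

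The genotype difference itself depended on time in 26 genes (0.123%) by limma's F-test of the interaction. *XTH19*, a xyloglucan endotransglucosylase of the cell wall, was at 22.5, 21.6 and 24.2 FPKM in Col-0 and 65.8, 66.7 and 73.5 FPKM in *bzip60-2* at 0 h. At 24 h it was at 24.7, 25.2 and 23.1 and 24.4, 19.2 and 25.8 FPKM, and the log2 differences at 0, 12 and 24 h were 1.55, 0.54 and -0.08. AT1G76210, a DUF241 protein, was at 0.107, 0.357 and 1.22 FPKM in Col-0 and 7.49, 9.20 and 10.7 FPKM in *bzip60-2* at 0 h, with differences of 2.75, 0.26 and 0.25. Only 1 of the 142 DEGs was among the 26, so the lower median of the higher DEGs at 24 h is not carried by gene-wise tests. The count fell to 13 after scaling and ran from 4, without Col-0 24 h replicate 2, to 57, without *bzip60-2* 0 h replicate 2. With replicate number as a block in the fit it fell to 1. That gene was AT1G76210 (adjusted p = 0.00824 by the F-test), and *XTH19* then had an adjusted p of 0.0102.

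The other lists had few calls or none. Of 15 glutathione transferases *GSTU11* was higher (1.18), of 6 mitochondrial stress genes *CYP81D8* (0.91) and of 9 genes of indole glucosinolates and camalexin *MYB51* (0.73), shares of 6.67%, 16.7% and 11.1% that rest on 1 gene each beside the 3.34% of all genes. All 3 calls depended on single libraries, with adjusted p of up to 0.0130 in 9 fits for *GSTU11*, 0.0105 in 4 for *CYP81D8* and 0.0177 in 13 for *MYB51*, each highest without Col-0 12 h replicate 1. Genes of abscisic acid and drought, the circadian clock, iron, phosphate, nitrate and sulphur nutrition, auxin response, heat shock, aliphatic glucosinolates, flavonoids, sugar starvation and cell division gave 0 calls in either direction. After scaling, 3 of 14 phosphate genes, 1 of 17 flavonoid genes and 1 of 17 aliphatic glucosinolate genes were called, all lower, against 355 lower of all 21161 genes. At an adjusted p between 0.01 and 0.05 these lists may hold further differences, and a list without a call is not shown to be equal in the genotypes.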

How the data were processed

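Stranded mRNA libraries of whole seedlings were read as single-end 50-nt reads. The authors trimmed them with cutadapt 1.8.1, aligned them to TAIR10 with TopHat2 2.0.14 and Bowtie2 2.2.4, and deposited 1 FPKM column per library made by Cufflinks 1.3.0, without pooling. The peak lists, whose signal values the authors deposited as given by MACS2 2.1.2, hold 1 list per GFP-tagged factor and time-point after Tm, selected for reproducibility and cleared of peaks overlapping a DMSO peak unless much stronger after Tm, and only the peak positions and nearest genes were used here.

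A count test could not be run on FPKM. The values were transformed to log2(FPKM + 1) and fitted with limma 3.58.1 in R 4.3.3 (moderated, with a mean trend) over 18 libraries with genotype and time as terms, after keeping 21161 of 34133 genes with FPKM over 1 in at least 1 library. P-values were adjusted by Benjamini-Hochberg over all genes tested, two-sided, at 0.01, and DEGs also needed an absolute log2 difference over 1. Single time-points and genotype by time came from a fit with the interaction, *bzip28-2* from a fit of 27 DMSO libraries, and the Tm values from fits of the Tm libraries and of all 36 libraries of both genotypes. Read totals were not used here. Relative depth was estimated from low genes, of whose 28814 values 75.9% lay within 0.1 of a whole multiple of 1 read. An even spread would give 20% without any fitting. The read unit of each gene and the depths were fitted to these same values, so the share is no check of the depths. Exact zeros can be failed estimates: 31 of 6683 genes with a median over 20 FPKM were listed at 0 in some library.

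The rule for naming took the 15 largest in each direction among DEGs without overlap at any time-point. It also took the 5 smallest p of genotype by time and 8 genes of the study (*bZIP60*, *bZIP28*, *BIP3*, *ERdj3B*, *BI1*, *NAC103*, *COW1*, *LRX1*). Up to 4 of each of 25 gene lists were taken by smallest p. Some genes under this rule are not described above, among them the lower DEGs AT1G67865 (log2 -1.58), AT4G01390 (-1.37) and AT2G15020 (-1.26). Their adjusted p by limma were 7.82e-05, 6.03e-04 and 4.18e-04. AT1G67865 stayed past the threshold in all 29 alternatives. The comparison, its members and the lists were chosen with earlier results of these data known. Gene names and promoters came from RefSeq's TAIR10.1, in which 31510 of the 34133 identifiers were found.

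The alternatives were a pseudocount of 0.1, scaling by the median ratio, no filter or a mean FPKM of at least 1, limma without the trend, a replicate block, 27 libraries, an adjusted p under 0.05, and leaving out each library or time-point. In data simulated for the first comparison with 21161 genes, 98% of 100 genes changed by a log2 of 1.5 and 63% of 100 changed by 0.5 were recovered, and 0 of 20961 unchanged genes were called. The changed genes were drawn above a floor of mean expression and the noise was independent for each gene. These rates therefore do not cover low genes or shifts that many genes of a library share. Analyses used Python 3.11.15, numpy 2.4.6, pandas 2.3.3 and matplotlib 3.10.9.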

Additional observations from a re-analysis of the deposited data

Results flagged for a closer look

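For 5 genes the genotype difference differed between time-points with the smallest p of limma's interaction F-test among the 26 called (0.123% of 21161). *XTH19* had log2 differences of 1.55, 0.54 and -0.08 at 0, 12 and 24 h (adjusted p = 8.13e-04, 0.0102 with the replicate block). AT1G76210 had 2.75, 0.26 and 0.25 (adjusted p = 0.00171, 0.00824 with the block and 0.0512 with a pseudocount of 0.1). *SHB1*, a regulator of seed and light development, was at 1.48, 1.02 and 1.65 FPKM in Col-0 and 5.35, 5.92 and 7.04 FPKM in *bzip60-2* at 0 h, with differences of 1.58, 0.41 and 0.04 (adjusted p = 0.00306, 0.0184 with the block). *SFR2*, a galactolipid remodelling enzyme of the plastid envelope needed in freezing, had -0.62, -0.18 and 0.42 (adjusted p = 0.00306, 0.0188 with the block). The bHLH gene AT3G21330 was at 1.40, 1.48 and 1.54 FPKM in Col-0 and 4.41, 4.13 and 5.16 FPKM in *bzip60-2* at 0 h, with differences of 1.17, 0.15 and -0.27 (adjusted p = 0.00306, 0.0311 with the block). Of the 5, *XTH19*, AT1G76210, *SHB1* and AT3G21330 stood above Col-0 at 0 h and near it at 24 h, whereas *SFR2* stood below at 0 h and above at 24 h.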

How the results depend on the processing

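All 142 DEGs kept their sign in every alternative. The median of all genes moved from 0.08 to -0.01 with scaling. The 120 higher and 22 lower DEGs became 97 and 35 with scaling and 203 and 51 with a pseudocount of 0.1. They became 59 and 23 without the 0 h libraries and 3 and 9 without those of 12 h. Without those of 24 h they were 199 and 37. With 1 library left out they ran from 103 to 160 and from 17 to 35, the 35 without *bzip60-2* 24 h replicate 1. Against *bzip28-2*, the pseudocount of 0.1 gave 122 higher and 11 lower DEGs in place of 78 and 6.

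At 0 h, an adjusted p under 0.05 gave 215 higher DEGs, and leaving out 1 library gave 48 to 175 higher (59 and 54 without Col-0 0 h replicates 1 and 2, 48 without *bzip60-2* 0 h replicate 3) and 15 to 67 lower DEGs (21 and 20 without those Col-0 libraries, 34 without *bzip60-2* 0 h replicate 1). At 12 h, there were 124 higher and 47 lower DEGs with scaling, 130 higher without the filter, and 338 and 51 at an adjusted p under 0.05. Leaving out 1 library gave 34 to 273 higher at 12 h (34, 73 and 87 without Col-0 12 h replicates 1 to 3, 49 without either *bzip60-2* 12 h replicate 1 or 3) and 7 to 48 lower. At 24 h, there were 5 and 11 without the filter and 30 and 45 at an adjusted p under 0.05, and leaving out 1 library gave 3 to 23 higher and 7 to 26 lower.

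The genotype by time test called 13 genes with scaling, 327 at an adjusted p under 0.05, and 4 to 57 with 1 library left out. Same-numbered replicates of the genotypes correlated from -0.264 to 0.395 in their deviations, and differently numbered ones from -0.433 to 0.370. At 24 h the same-numbered values were 0.395, 0.381 and -0.061. These values do not settle whether the numbers pair the samples. With the replicate block, 106 of the 120 higher and all 22 lower DEGs kept an adjusted p under 0.01, genotype by time called 1 gene, and *MYB51*, *IRE1A*, *ACS6* and *PBS3* missed the threshold.

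Of 62 named genes past the threshold, 10 stayed past it in all 29 alternatives, 53 in every fit without 1 library, and 15 were lost without the 12 h libraries only. The cause of these changes was not tested. With 3 replicates a group and FPKM in place of counts, low genes rest on few reads, and a gene without a call is not shown to be equal.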
